A study of Mus musculus with 6 samples.

Results

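The genes examined here encode the junctions that hold epithelial cells together: claudins, occludin and the zonula occludens scaffold proteins of tight junctions, the cadherins and plaque proteins of desmosomes, the connexins of gap junctions, and E-cadherin, P-cadherin and Epcam. They were taken by symbol (every gene starting with *Cldn*, *Dsg*, *Dsc*, *Pkp*, *Gja*, *Gjb*, *Gjc* or *Tjp* and a digit, together with *Ocln*, *Dsp*, *Jup*, *Cdh1*, *Cdh3* and *Epcam*), and 63 of the 24647 named genes on the array were included, each by its brightest probe set on average. The samples were nodules of metaplasia from the squamo-columnar junction (SCJ), the border between the squamous forestomach and the glandular stomach of the mouse, and nodules were used whole. Of the 6 RNA samples, 3 (52540, 52541 and 52542, labelled Cdx2/IL-1B) were of the *K14-Cdx2::L2-IL-1β* genotype and 3 (52543, 52544 and 52545, labelled IL-1B) of the *L2-IL-1β* genotype. All carried the *L2-IL-1β* transgene, in which an Epstein-Barr virus promoter drives human IL-1β in the squamous forestomach, the esophagus and the oral cavity. The *K14-Cdx2* transgene adds Cdx2, a transcription factor of the intestine, under the keratin 14 promoter, which is active in basal squamous cells. Mice of both genotypes, of the strain labelled C57/BL6, drank 0.2% deoxycholic acid from 8 weeks of age for 12 months, to an age of 14 months. The paper counts the samples as 3 biological replicates of each genotype. The sources used here do not say whether a sample is 1 mouse or several, so p-values measure only the spread between these samples.

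Tight junctions seal the space between neighbouring epithelial cells, and the claudins present decide which ions and molecules may pass. Desmosomes anchor the keratin filaments of one cell to those of the next and are most abundant in stratified squamous epithelium such as skin, esophagus and forestomach, where the desmogleins and desmocollins of the basal layer are replaced by others as cells mature. Gap junctions are channels of connexins through which neighbouring cells exchange ions and small molecules. Squamous and columnar epithelia use different members of each family, and a nodule of the SCJ may hold both epithelia as well as muscle, vessels and leukocytes. The comparison asked which junction genes differ between nodules with and without ectopic Cdx2.

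Values are log2 intensities, on which a difference of 1 is a doubling, and intensities of different genes were not set against each other because probe sets differ in brightness. *Cdx2* itself was 9.04, 9.72 and 9.83 in the *K14-Cdx2::L2-IL-1β* samples against 6.74, 6.87 and 6.80 in the *L2-IL-1β* samples, as labelled. The *K14-Cdx2::L2-IL-1β* samples were the less uniform group. Sample 52540 correlated with the samples of the other genotype (mean Pearson r over all probe sets 0.990) as closely as with its own group (0.987). Sample 52542 stood apart by its pancreatic acinar markers, whose median over 12 genes was 9.76 against 6.15 to 6.76 in the other 5 samples. Results are therefore given with and without these 2 samples where they change a call. In whole nodules, fewer cells of a type and less RNA per cell cannot be told apart.

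Of the 63 junction genes, 3 fell in the *K14-Cdx2::L2-IL-1β* nodules and 0 rose at an adjusted p under 0.10 (limma, adjusted by Benjamini-Hochberg across the 34365 probe sets). The desmosomal cadherin *Dsc2* fell 2.04-fold, the P-cadherin gene *Cdh3* 1.88-fold and the desmosomal plaque gene *Pkp3* 1.37-fold. Over all named genes, 1.44% were called lower and 0.706% higher by the same rule, and the 3 called members are 4.76% of the 63. At an unadjusted p under 0.05, 11 members were lower and 2 higher (all named genes, 8.07% lower and 7.06% higher). A two-class unpaired SAM test written for this comparison, at a q-value under 10% with no cut on fold, called the same 3 members lower and 0 higher. It is the kind of test named in the methods but not the run of the study, whose thresholds included a fold change, and of the 3 genes only *Dsc2* differed by 2-fold or more. Leaving out 1 sample moved the count of members called lower to 7 without 52540 (adding *Cldn17*, *Dsg1a*, *Dsg1b* and *Dsg3*), to 4 without 52542 (adding *Cldn8*), to 1 (*Dsc2*) without 52541, 52544 or 52545, and to 0 without 52543, and none was called higher in any of these 6 fits. For 11 members all *K14-Cdx2::L2-IL-1β* samples lay below all *L2-IL-1β* samples, and for 3 above, whereas 12.0% of all named genes did not overlap in the lower direction and 9.21% in the higher. With 3 samples against 3, an exact permutation test of a single gene cannot go below p = 0.10, which is the value for every gene without overlap.

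**Figure D1:**
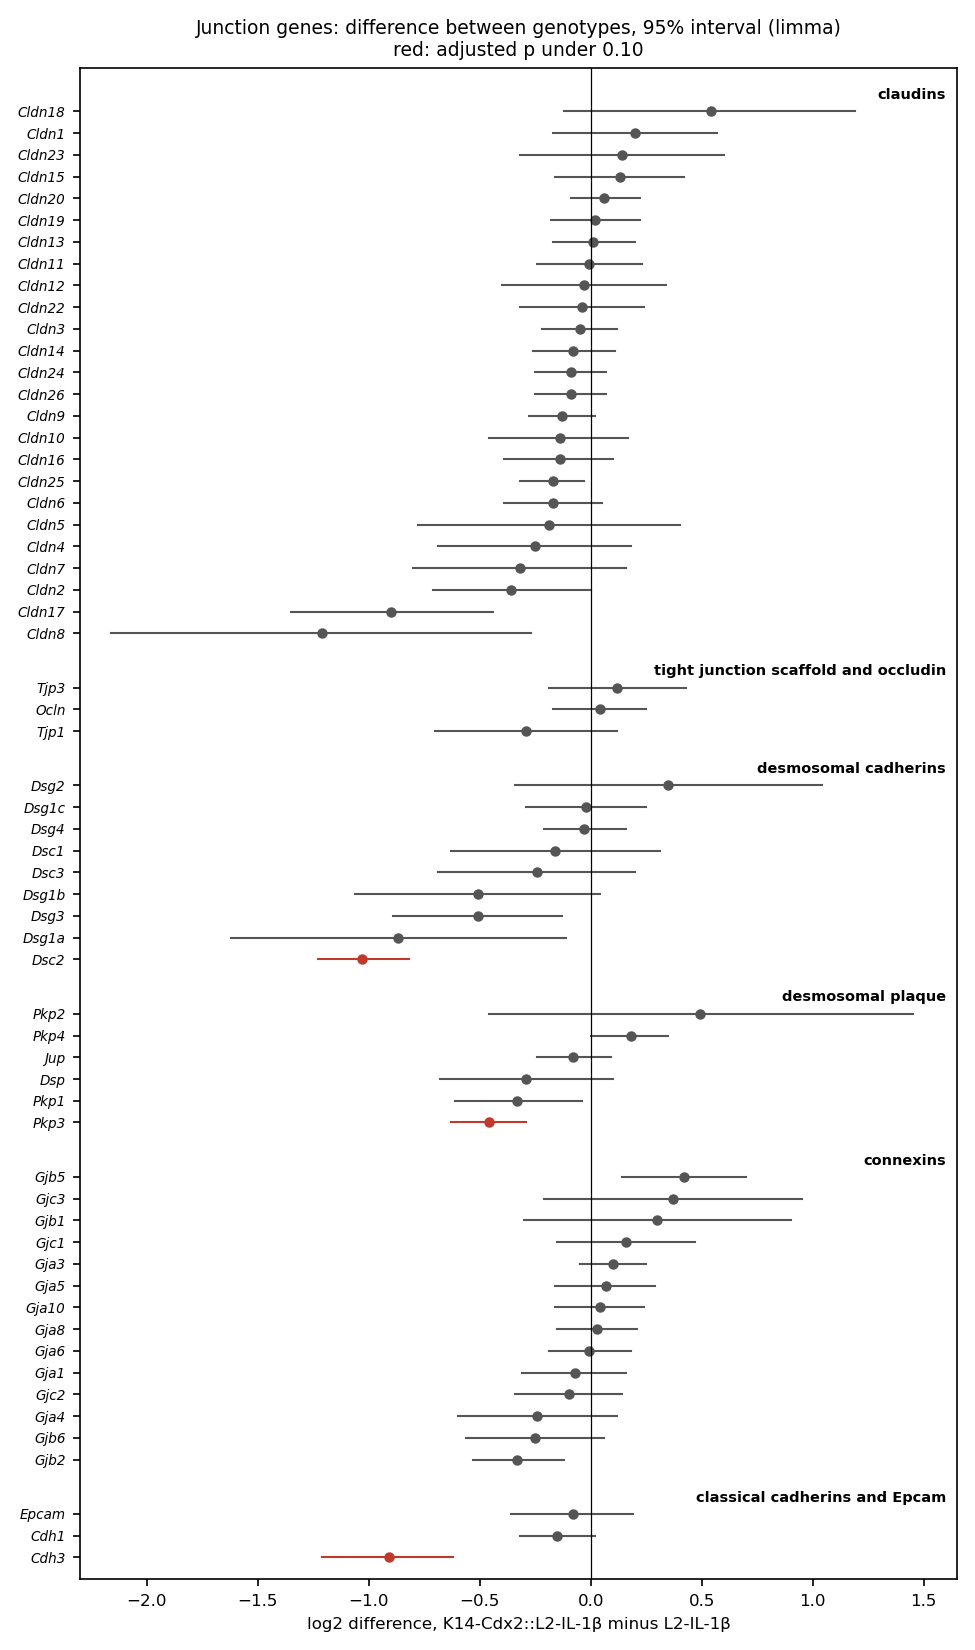
Difference in log2 intensity (x axis, *K14-Cdx2::L2-IL-1β* minus *L2-IL-1β*) for 60 of the 63 junction genes (y axis), grouped by role, where points are differences of means of 3 samples and bars are 95% intervals from limma. The 3 genes in red, *Dsc2*, *Pkp3* and *Cdh3*, had an adjusted p under 0.10, and all 3 lie below 0.

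Most differences were small. The standard error of a difference was 0.12 at the median (0.06 to 0.40), and for 53 of the 63 genes the 95% interval lay within 1 log2 unit of 0. Differences reached 2-fold for 2 genes (*Dsc2* and *Cldn8*). The median difference over the members was -0.08, with 41 lower and 22 higher, against a median of -0.0079 over all probe sets. Of the members, 18 had a mean below the median probe set mean (6.64), and their differences ran from -0.17 to 0.16, including 3 of those without overlap. Dim genes cannot be read as expressed from these files, and every member was tested without a filter on intensity.

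Among the 9 desmosomal cadherins, the adhesion molecules of the desmosome, *Dsc2* fell and the other 8 were not called, and the median difference was -0.24. *Dsc2* encodes desmocollin 2, the desmocollin found in most desmosome-bearing epithelia. Its log2 intensity was 11.29, 11.55 and 11.42 in the *K14-Cdx2::L2-IL-1β* samples against 12.46, 12.37 and 12.50 in the *L2-IL-1β* samples. The genotypes were far apart relative to their spread (11.42 ± 0.13 against 12.44 ± 0.07, SD, n = 3). The difference was -1.03 with a standard error of 0.09 and an adjusted p of 0.0173. *Dsc2* is also on the study's own list of changed genes, as lower. The probe set is annotated to the gene ENSMUSG00000024331 on chromosome 18, positions 20189134 to 20218055 of NCBIM37. The call was lost without sample 52543 (adjusted p = 0.139, difference -1.02), and it was kept without 52540 (0.0224) and without 52542 (0.0257).

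The desmocollin and desmoglein genes of the mouse lie in one cluster on this chromosome, and the neighbours of *Dsc2* were not called. *Dsc3*, the desmocollin of basal squamous cells, was 12.20, 11.76 and 11.47 against 12.15, 11.89 and 12.11, a difference of -0.24 ± 0.19 (SE, adjusted p = 0.634). *Dsc1*, the desmocollin of the upper, differentiating layers, was 13.23, 12.78 and 12.43 against 12.96, 12.87 and 13.10, a difference of -0.16 ± 0.20 (SE, adjusted p = 0.779). Both overlapped between genotypes, both were highest of the 6 samples in 52540 and lowest in 52542, and the difference of *Dsc1* was 0.03 without 52542 and -0.37 without 52540.

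The desmogleins of stratified epithelium were lower without being called. *Dsg3*, the antigen of pemphigus vulgaris and a basal layer desmoglein, was 12.54, 12.24 and 11.89 against 12.72, 12.70 and 12.78, and its genotypes did not overlap (difference -0.51 ± 0.16, SE, adjusted p = 0.233). *Dsg1a* was 9.51, 8.66 and 8.31 against 9.75, 9.36 and 9.96, and 52540 lay within the range of the *L2-IL-1β* samples (difference -0.87 ± 0.32, SE, adjusted p = 0.306). *Dsg1b* was 11.39, 10.75 and 10.49 against 11.49, 11.18 and 11.51, again with overlap through 52540 alone (difference -0.51 ± 0.23, SE, adjusted p = 0.401). Desmoglein 1 is the desmoglein of the upper layers and has 3 gene copies in the mouse, of which the third, *Dsg1c*, differed by -0.02. The *Dsg1* copies are close in sequence, and the sources used here do not say how far their probe sets tell them apart. Without sample 52540, *Dsg1a*, *Dsg1b* and *Dsg3* were all called lower (adjusted p = 0.0537, 0.0601 and 0.0573). Without 52542 the differences of *Dsg1a*, *Dsg1b* and *Dsg3* were -0.61, -0.32 and -0.34, and none was called.

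*Dsg2*, the desmoglein of simple epithelia and of heart muscle, had a positive difference. It was 9.28, 9.42 and 10.37 against 9.40, 9.51 and 9.12, a difference of 0.35 ± 0.29 (SE, adjusted p = 0.662). Only 52542 lay above the *L2-IL-1β* samples. *Dsg4* differed by -0.03 and was below the median probe set mean, as was *Dsg1c*.

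**Figure D2:**
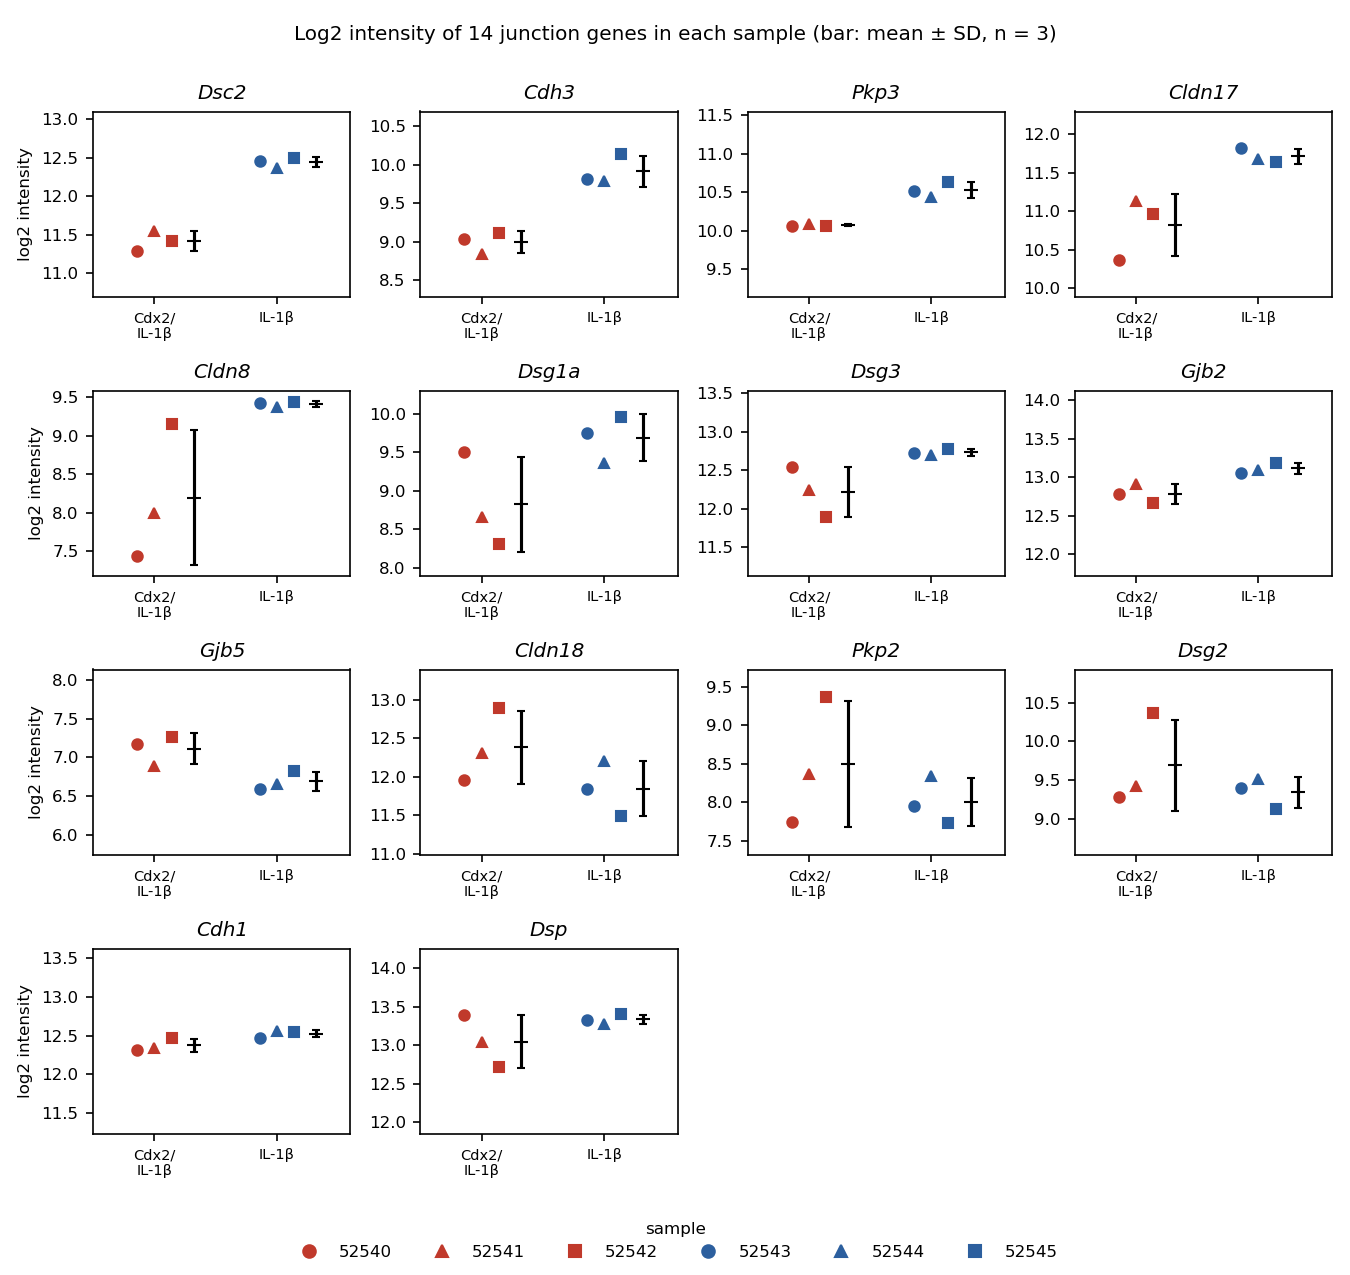
Log2 intensity (y axis) of 14 junction genes in each sample of the 2 genotypes (x axis), with marker shapes for samples and black bars for mean ± SD (n = 3); each panel has its own y axis. The called genes *Dsc2*, *Cdh3* and *Pkp3* separate the genotypes, as do *Cldn17*, *Cldn8*, *Dsg3*, *Gjb2* and *Gjb5*, which were not called. *Pkp2* and *Dsg2* are highest in sample 52542, and *Dsg1a*, *Dsg3* and *Dsp* are lowest there.

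The 6 genes of the desmosomal plaque link the cadherins to keratin filaments, and of these *Pkp3* fell and 5 were not called. *Pkp3* encodes plakophilin 3, an armadillo protein present in the desmosomes of most epithelia. It was 10.07, 10.09 and 10.06 in the *K14-Cdx2::L2-IL-1β* samples against 10.52, 10.44 and 10.64 in the *L2-IL-1β* samples. The 3 *K14-Cdx2::L2-IL-1β* values were nearly identical, and all were lower. The difference was -0.46 with a standard error of 0.07 and an adjusted p of 0.0579. The probe set is annotated to the gene ENSMUSG00000054065 on chromosome 7, positions 148264117 to 148276409 of NCBIM37. The call was lost without 52541, 52543, 52544 or 52545 (adjusted p = 0.163, 0.246, 0.143 and 0.171), with the difference between -0.41 and -0.50, and was kept without 52540 (0.0602) or 52542 (0.0974).

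*Pkp1*, the plakophilin of the upper layers of stratified epithelium, was 12.68, 12.53 and 12.23 against 12.83, 12.74 and 12.84. Its genotypes did not overlap, but the difference of -0.33 ± 0.12 (SE) was not called (adjusted p = 0.311). *Dsp*, which encodes desmoplakin, the linker to keratin, was 13.39, 13.04 and 12.71 against 13.33, 13.28 and 13.40. Sample 52540 was within the *L2-IL-1β* range and 52542 was the lowest, and the difference was -0.29 ± 0.16 (SE, adjusted p = 0.511). It was -0.12 without 52542 and -0.46 without 52540. *Jup*, which encodes plakoglobin, shared by desmosomes and adherens junctions, was 12.62, 12.67 and 12.54 against 12.64, 12.67 and 12.75, with a difference of -0.08 and a 95% interval of -0.24 to 0.09. The *Jup* probe set names a second gene as well.

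*Pkp2*, the plakophilin of simple epithelia and heart, was 7.75, 8.37 and 9.37 against 7.95, 8.34 and 7.73. Sample 52542 was by far the highest and 52540 lay among the lowest, and the difference was 0.49 ± 0.40 (SE, adjusted p = 0.651). It was 0.06 without 52542 and 0.87 without 52540, and neither was called. *Pkp4*, a relative of p120 catenin that is also found at adherens junctions, was 10.50, 10.59 and 10.69 against 10.42, 10.45 and 10.37. It was one of the 3 members without overlap in the higher direction, by 0.18 ± 0.07 (SE, adjusted p = 0.354).

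Of the classical cadherins, *Cdh3* fell and *Cdh1* was not called. *Cdh3* encodes P-cadherin, the classical cadherin of basal cells in stratified epithelium, and was 9.04, 8.84 and 9.12 in the *K14-Cdx2::L2-IL-1β* samples against 9.81, 9.79 and 10.14. All *K14-Cdx2::L2-IL-1β* samples were lower by more than the spread within either genotype (9.0 ± 0.15 against 9.91 ± 0.20, SD, n = 3). The difference was -0.91 with a standard error of 0.12 and an adjusted p of 0.0462. The call was lost without 52541, 52543, 52544 or 52545 (adjusted p = 0.139, 0.197, 0.137 and 0.12), with the difference between -0.80 and -0.98, and was kept without 52540 (0.0493) or 52542 (0.0552).

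*Cdh1*, which neighbours *Cdh3* in the genome and encodes E-cadherin, the adhesion molecule of nearly all epithelia, was 12.31, 12.34 and 12.47 against 12.47, 12.56 and 12.54. The genotypes met at 12.47, and the 95% interval of the difference of -0.15 ran from -0.32 to 0.02 (adjusted p = 0.422). A second, dimmer probe set of *Cdh1* differed by -0.35 (adjusted p = 0.227). *Epcam*, which encodes an adhesion molecule of columnar epithelium, was 11.73, 11.87 and 11.97 against 12.11, 11.97 and 11.74, with overlap (difference -0.08, 95% interval -0.36 to 0.19).

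None of the 25 claudins was called at an adjusted p under 0.10 in limma. None was called either at a q-value under 10% in the SAM test written for this comparison. The study's own list, cut at 2-fold or more and a false discovery rate under 10%, did include *Cldn8* as lower, as it did *Dsc2*. The median difference of the 25 claudins was -0.09, with 18 lower and 7 higher. Of these, 5 did not overlap between genotypes, all in the lower direction (*Cldn17*, *Cldn8*, *Cldn25*, *Cldn9* and *Cldn6*). Over all named genes, 12.0% did not overlap in that direction. *Cldn17* and *Cldn8* lie next to each other on chromosome 16, from position 88506052 and from position 88561073 of NCBIM37, and had the lowest differences of the family. *Cldn17*, an anion channel claudin in kidney cells, was 10.37, 11.13 and 10.96 against 11.82, 11.68 and 11.64. Every *K14-Cdx2::L2-IL-1β* sample was lower, but they spread over more than the *L2-IL-1β* samples, and the difference of -0.90 ± 0.19 (SE) missed the threshold (adjusted p = 0.114). It was called without dim probe sets (adjusted p = 0.0872) and without sample 52540 (0.0446).

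*Cldn8*, a barrier claudin best known from the distal nephron and colon, had the largest difference of any member and the widest spread. It was 7.44, 8.0 and 9.15 in the *K14-Cdx2::L2-IL-1β* samples against 9.42, 9.37 and 9.44 in the *L2-IL-1β* samples. The SD was 0.04 in the *L2-IL-1β* samples and 0.87 in the *K14-Cdx2::L2-IL-1β* samples, with 52542 close to the other genotype. The difference of -1.21 ± 0.39 (SE) had an adjusted p of 0.257. Without 52542 it was -1.69 and was called (adjusted p = 0.0257), and without 52540 it was -0.83 and was not (0.225). Sample 52540 was the lowest of the 6 for both neighbours, *Cldn17* and *Cldn8*.

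Claudins of columnar epithelium had differences of both signs. *Cldn18*, the claudin of gastric mucosa, was 11.95, 12.30 and 12.89 against 11.84, 12.20 and 11.49. The genotypes overlapped, 52542 was highest, and the difference was 0.54 ± 0.27 (SE, adjusted p = 0.457), or 0.28 without 52542. *Cldn2*, a cation channel claudin of leaky epithelia, was 6.77, 6.77 and 7.13 against 7.50, 7.11 and 7.13, lower by 0.36 on the log2 scale and not called (adjusted p = 0.365). *Cldn7* and *Cldn4*, claudins of many simple epithelia, differed by -0.32 and -0.25, *Cldn3* by -0.05, and *Cldn15*, a channel claudin of the intestine, by 0.13. *Cldn1*, the main barrier claudin of skin and other stratified epithelia, was 12.15, 12.14 and 11.62 against 11.69, 11.72 and 11.90. Its difference of 0.20 had an interval from -0.17 to 0.57, with 52542 the only *K14-Cdx2::L2-IL-1β* sample not above the others.

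*Cldn5*, the claudin of endothelium, was 8.19, 7.94 and 7.37 against 7.84, 7.83 and 8.41, and the median of 8 endothelial markers was 8.78, 8.55 and 8.58 against 8.68, 8.72 and 9.03. The probe set named *Cldn25* was 12.43, 12.43 and 12.46 against 12.65, 12.55 and 12.64, a small difference (-0.17 ± 0.06, SE, adjusted p = 0.294) without overlap. The genes that the array calls *Cldn25* and *Cldn26* carry the transcript accessions of *Cldnd1* and *Tmem114* in RefSeq, relatives of the claudins. *Cldn9* and *Cldn6*, the other claudins without overlap, were below the median probe set mean and differed by -0.13 and -0.17.

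The upstream sequence of 4 members is shown because Cdx proteins bind TTTATG, the motif best known for Cdx2, and the groups differ in *Cdx2*. RefSeq (GRCm38.p6) start sites were matched for 39 members with 54 windows of 250 bases ending at the start site. The motif TTTATG, on either strand (CATAAA on the other), was in 4 of these windows, 7.41%, against 10.8% of all 32851 windows. The called genes *Dsc2*, *Cdh3* and *Pkp3* were not among the 39 and were not scanned. The motif was in a window each of *Cldn2*, *Cldn14*, *Epcam* and *Jup*, with differences of -0.36, -0.08, -0.08 and -0.08. *Cldn17*, the claudin without overlap shown for contrast, has no match in its window, which says only that these letters are not in this stretch. Capitals mark the motif, and each sequence is written 5′ to 3′ on the strand of its gene.
Cldn2 (plus strand, chrX:139800558-139800807): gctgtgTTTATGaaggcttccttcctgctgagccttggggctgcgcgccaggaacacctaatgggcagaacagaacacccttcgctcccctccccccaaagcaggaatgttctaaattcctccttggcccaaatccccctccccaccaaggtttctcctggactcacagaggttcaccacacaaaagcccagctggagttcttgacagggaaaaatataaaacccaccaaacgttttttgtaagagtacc
Epcam (plus strand, chr17:87635729-87635978): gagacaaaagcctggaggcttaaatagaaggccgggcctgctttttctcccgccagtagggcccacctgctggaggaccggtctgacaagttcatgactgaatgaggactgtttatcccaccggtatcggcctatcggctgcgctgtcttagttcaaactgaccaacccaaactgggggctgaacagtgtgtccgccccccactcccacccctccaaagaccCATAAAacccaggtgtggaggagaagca
Jup (minus strand, chr11:100397791-100398040): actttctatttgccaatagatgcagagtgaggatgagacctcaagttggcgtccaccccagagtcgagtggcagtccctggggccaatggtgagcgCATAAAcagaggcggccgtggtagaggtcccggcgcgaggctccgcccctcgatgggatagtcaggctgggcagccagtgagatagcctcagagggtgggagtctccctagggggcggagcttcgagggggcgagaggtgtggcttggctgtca
Cldn17 (minus strand, chr16:88506979-88507228): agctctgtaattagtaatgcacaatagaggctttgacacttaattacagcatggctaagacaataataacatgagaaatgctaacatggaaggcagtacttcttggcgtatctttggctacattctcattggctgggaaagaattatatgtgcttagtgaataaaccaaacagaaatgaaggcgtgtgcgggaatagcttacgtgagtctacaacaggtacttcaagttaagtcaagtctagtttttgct

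None of the 4 genes of occludin and the tight junction scaffold was called, and their median difference was -0.07. *Ocln*, which encodes occludin, a membrane protein of tight junctions, was 11.24, 11.23 and 11.19 against 11.31, 11.21 and 11.01, a difference of 0.04 with a 95% interval from -0.17 to 0.25. The *K14-Cdx2::L2-IL-1β* values fell inside the range of the other genotype. *Tjp1*, which encodes the scaffold protein ZO-1, was 11.80, 11.49 and 11.09 against 11.77, 11.70 and 11.77, a difference of -0.29 ± 0.17 (SE, adjusted p = 0.529). Sample 52540 was the highest of the 6 samples and 52542 the lowest, as for *Dsc1* and *Dsc3*. The difference was -0.10 without 52542 and -0.46 without 52540. *Tjp3*, a scaffold relative of *Tjp1*, differed by 0.12 and was not called.

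None of the 16 connexins was called by limma or by SAM, and their median difference was 0.05, with 10 higher and 6 lower. The connexins of squamous epithelium had differences of both signs. *Gjb2*, a connexin of the cochlea and of stratified epithelium, was 12.78, 12.91 and 12.66 against 13.06, 13.09 and 13.19. Its genotypes did not overlap, and the difference of -0.33 ± 0.09 (SE) had an adjusted p of 0.175. *Gjb6*, which neighbours *Gjb2* on chromosome 14 and is also expressed in keratinocytes, differed by -0.25 ± 0.13 (SE, adjusted p = 0.472).

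Of the 16 connexins, 2 did not overlap between genotypes in the higher direction (9.21% of all named genes). *Gjb5*, a connexin of keratinocytes, was 7.18, 6.89 and 7.27 against 6.59, 6.66 and 6.83, with no overlap (difference 0.42 ± 0.12, SE, adjusted p = 0.198). *Gja4*, a connexin of endothelium, differed by -0.24 and was not called. *Gja3*, a lens connexin on chromosome 14, was the other connexin without overlap in the higher direction, by 0.10, and was below the median probe set mean.

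*Gja1*, the most widely expressed connexin, made by many epithelial, muscle and stromal cells, was 13.55, 13.40 and 13.21 against 13.40, 13.45 and 13.51. The difference was -0.07, with a 95% interval from -0.31 to 0.16 and a value of 0.02 without 52542. *Gjb1*, a connexin of liver and gastrointestinal gland cells, was 7.45, 8.03 and 8.44 against 7.59, 7.92 and 7.51. Sample 52542 was highest and 52540 lowest, and the difference was 0.30 ± 0.25 (SE, adjusted p = 0.666). *Gjc3*, a connexin of myelinating glia, was 7.04, 6.99 and 6.56 against 6.08, 6.44 and 6.97. It overlapped (difference 0.37 ± 0.24, SE, adjusted p = 0.566, or 0.16 without 52543 and 0.61 without 52545), and the median of 5 Schwann cell markers was 6.84, 6.88 and 6.83 against 6.69, 6.65 and 6.66, whose part in the result was not tested.

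**Figure D3:**
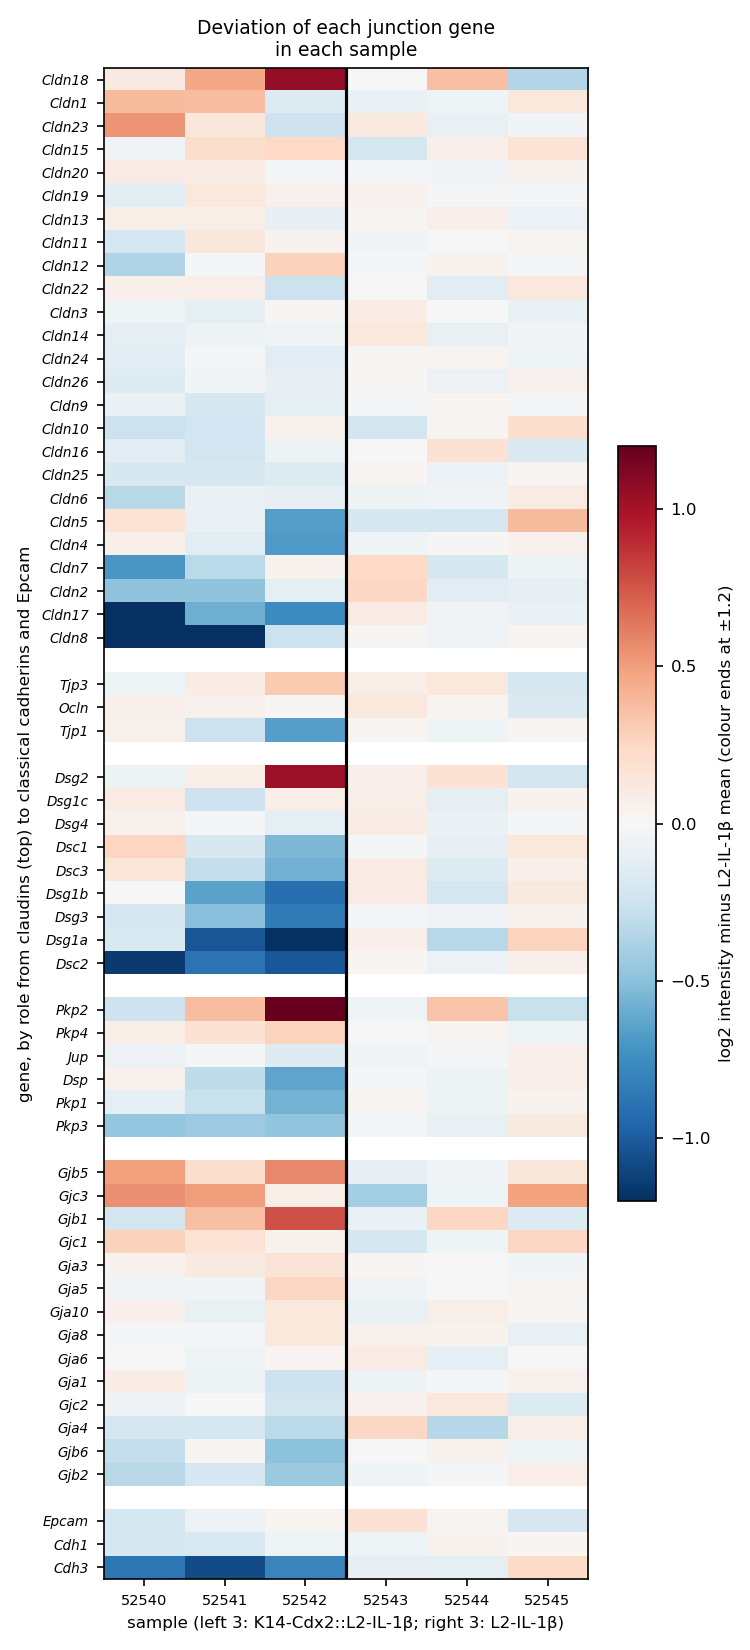
Log2 intensity of 60 of the 63 junction genes (y axis, by role) in each sample (x axis), as the deviation from the *L2-IL-1β* mean of that gene (colour, ending at ±1.2 log2 units). *Dsc2*, *Cdh3* and *Pkp3* are blue in all 3 *K14-Cdx2::L2-IL-1β* samples, as are members not called such as *Cldn17*, *Cldn8* and *Dsg3*. The rows of *Dsg1a*, *Dsg1b*, *Dsg3*, *Dsp*, *Dsg2* and *Pkp2* are strongest in sample 52542.

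Grouped by the epithelium in which they are best known, the junction genes of stratified epithelium and those of simple epithelium differed in the sign of their median difference. The 15 stratified genes had a median difference of -0.25, with 11 lower (such as *Dsg3*, *Pkp1*, *Gjb2* and *Cdh3*) and 4 higher (such as *Gjb5* and *Cldn1*). Of the 15 stratified genes, 2 were called lower (*Cdh3* and *Pkp3*), 0 were called higher and 13 were not called. Among all 24647 named genes, 1.44% were called lower and 0.706% higher, and 12694 had a negative difference. Their median deviation from the *L2-IL-1β* mean was -0.25 in 52541 and -0.48 in 52542, while 52540 lay within 0.01 of it. The 13 simple epithelial genes had a median difference of 0.12, with 0 called. That median is the value of *Tjp3*, the smallest of the positive differences. By sample, the median deviations of the simple genes overlapped between genotypes. They were -0.06, 0.07 and 0.05 in the *K14-Cdx2::L2-IL-1β* samples against 0.06, 0.04 and -0.12 in the *L2-IL-1β* samples. Of these 13, 7 were higher (such as *Cldn18*, *Pkp2*, *Dsg2* and *Gjb1*) and 6 lower (such as *Cldn2*, *Cldn7* and *Cldn4*). The 9 genes best known from endothelium, glia and muscle had a median difference of -0.01, and 0 were called.

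Sample 52542 was the lowest of all 6 samples for 10 of the 15 stratified genes (22.0% of all named genes) and the highest for 6 of the 13 simple epithelial genes (23.7% of all named genes). The highest value was most often in 52545, an *L2-IL-1β* sample (7 of the 15 stratified genes, against 15.3% of all named genes), and next in 52540 (6 of the 15, against 20.4%). The spread within *K14-Cdx2::L2-IL-1β* samples was larger than within *L2-IL-1β* samples for 44 of the 63 members, 69.8%, which is close to the 69.0% of all named genes. Among the stratified genes it was larger for 13 of 15.

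The medians of marker lists for the cells of the nodules also differed between samples, and the sample set apart was not the same for each list. The median of 9 squamous markers was 13.24, 13.00 and 13.06 in the *K14-Cdx2::L2-IL-1β* samples against 13.39, 13.39 and 13.43. Of the 9, 2 were called lower (*Krt14* and *Sfn*), against 1.44% of all named genes. *Krt14*, the keratin of basal squamous cells, was 12.75, 12.76 and 12.78 against 13.39, 13.22 and 13.38, lower in every *K14-Cdx2::L2-IL-1β* sample including 52540. The squamous markers did not all follow it, with 7 of the 9 lower and 2 higher. *Trp63* differed by -0.10 (limma adjusted p = 0.712), *Krt10* by -0.06 and *Krt15* by 0.25. The median of 12 columnar markers was 11.94, 12.40 and 12.84 against 12.07, 12.32 and 11.77, so that 52542 was highest, as it was for 11 of the 12 genes. The median of 6 parietal and chief cell markers was 12.78, 12.95 and 13.44 against 12.14, 12.63 and 10.32. The median of 8 leukocyte markers was 8.88, 8.75 and 7.89 against 9.52, 9.53 and 9.72. Of the 8, 2 were called lower (*S100a8* and *S100a9*), again against 1.44% of all named genes. The paper describes both as also made by squamous epithelium, so these 2 calls are not particular to leukocytes. Smooth muscle markers (7 genes) had a median of 12.71, 12.64 and 12.49 against 11.52, 12.07 and 12.53. The part of these cell types in the differences of *Dsc2*, *Cdh3* and *Pkp3* was not tested.

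**Figure D4:**
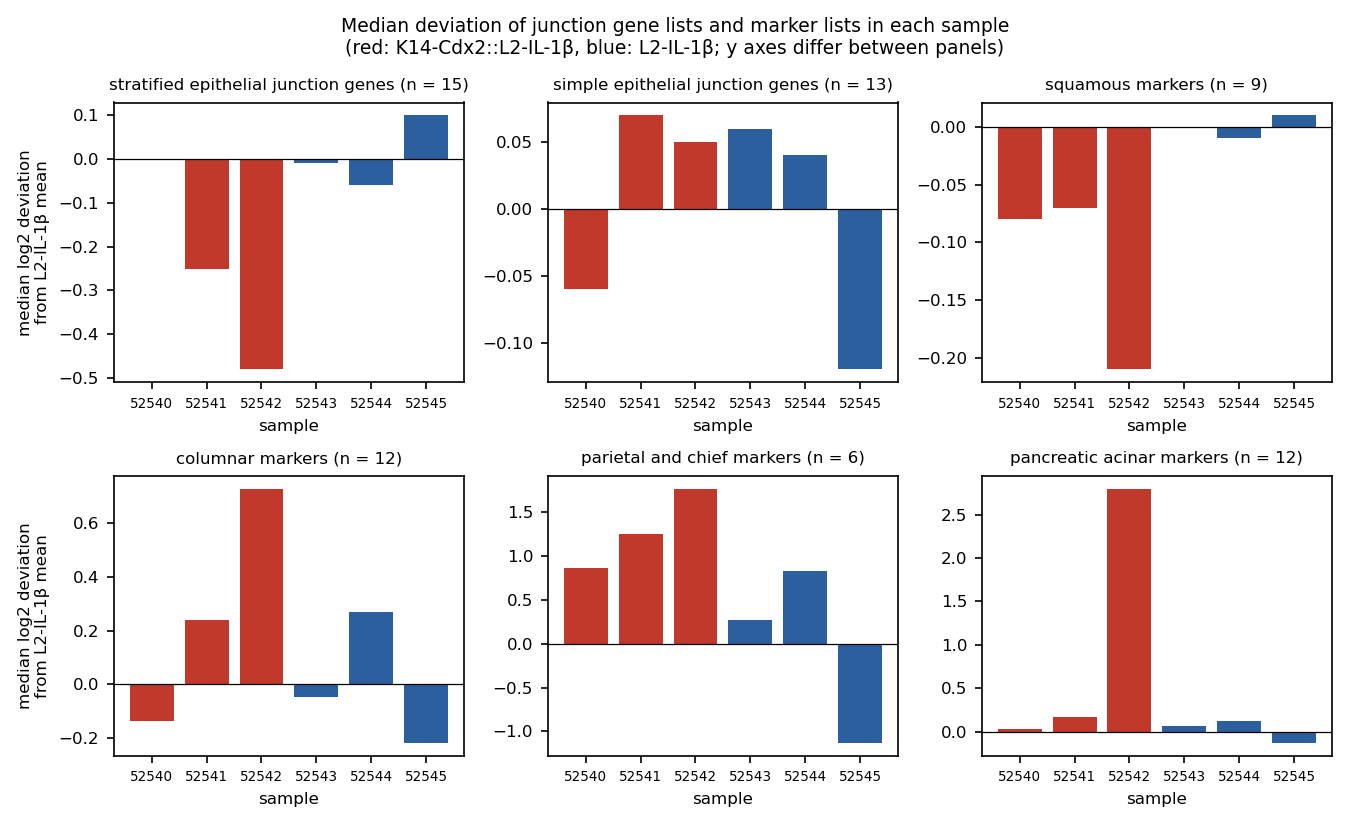
Median deviation from the *L2-IL-1β* mean (y axis, log2 units, with a scale of its own in each panel) of 2 junction gene lists and 4 marker lists in each sample (x axis). Sample 52542 has the lowest median of stratified junction genes (-0.48) and the highest of columnar (0.73) and pancreatic acinar markers (2.80), whereas sample 52540 lies near 0 for the stratified junction genes.

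A further 41 genes of cell junctions and related channels outside the rule gave 1 call. Among them were the junctional adhesion molecules, nectins, catenins, polarity scaffolds, pannexins and plakins. Over all named genes, 0.706% were called higher and 1.44% lower. *Magi3*, which encodes a scaffold protein with PDZ domains at tight junctions, rose. It was 9.91, 10.06 and 9.99 in the *K14-Cdx2::L2-IL-1β* samples against 9.60, 9.49 and 9.57, with no overlap, a difference of 0.43 ± 0.07 (SE) and an adjusted p of 0.0609. The call was lost when any sample other than 52540 was left out (adjusted p = 0.172 without 52541, 0.102 without 52542, 0.241 without 52543, 0.207 without 52544 and 0.193 without 52545). The next smallest p was that of *Cgnl1*, which encodes paracingulin, a protein of the tight junction plaque. It was 8.47, 8.28 and 8.36 against 8.06, 8.08 and 7.98 (difference 0.33 ± 0.07, SE, adjusted p = 0.132). The median difference of the 41 genes was 0.01, with 21 higher and 20 lower. At an unadjusted p under 0.05, 5 were higher and 1 was lower (all named genes, 7.06% higher and 8.07% lower). Without overlap were 6 in the higher and 2 in the lower direction (all named genes, 9.21% and 12.0%).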

How the data were processed

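Total RNA of nodules was hybridised to Affymetrix mouse gene arrays (named Mouse Gene 2.0ST in the design text and 1.0ST in the methods), 1 array per sample. The authors deposited log2 intensities for 34365 probe sets, already on a common scale across arrays, with their normalization and summarisation stated neither in the labels nor in the methods (array medians 6.62 to 6.65). Both deposited tables held the same values. Columns with the authors' ratios, folds, scores, p-values and q-values were not used. Positions of genes are those of NCBIM37 in the annotation, which is cut short in the files and gives a position for 55 members, whereas the submitters' processing notes name mm8. Upstream sequences are from RefSeq, GRCm38.p6.

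All probe sets were fitted with limma 3.58.1 in R 4.3.3 (lmFit, eBayes, 2.59 prior degrees of freedom) with genotype as the only term, Benjamini-Hochberg adjusted, and called at an adjusted p under 0.10 whatever the fold. An exact permutation test over the samples, two-sided, stands beside it for single genes. The fit was tested on simulated data with known changes. Depth is not defined for arrays, and the number of samples limits the precision. Genes named are members called, the 6 largest rises and 6 largest falls, the 2 with the highest mean in each role, *Cdh1*, *Epcam*, *Tjp1*, *Ocln*, *Dsp* and *Jup*, and of the other junction genes those called and the 2 with the smallest p. Some members are not reported here by name and are left out of the figures, though they remain in the fits and counts. Further members with values, chosen after their values were seen, are neighbours in the genome, members without overlap and those of the epithelial lists. The members, lists and tests were chosen with earlier results of these data known. Alternatives were another normalization, a filter on dim probe sets, probe sets naming 1 gene, a trend and robust fit, an equal-variance test, a SAM test written anew with 20 relabellings and no cut on fold, stricter thresholds, averaging the probe sets of a gene, and leaving out each sample.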

Additional observations from a re-analysis of the deposited data

How the results depend on the processing

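The 3 members called lower (*Dsc2*, *Cdh3* and *Pkp3*) were the same under median centring, quantile normalization, a trend and robust fit, SAM and averaging the probe sets of a gene. *Cldn17* was added without dim probe sets and with probe sets naming exactly 1 gene, giving 4. At an adjusted p under 0.05, 2 remained (*Dsc2* and *Cdh3*), with a fold of 2 or more 1 (*Dsc2*), and with an equal-variance test 0. Leaving out each sample gave 0 to 7 members called lower and 0 called higher. The 1 other junction gene called higher (*Magi3*) was lost at an adjusted p under 0.05, with a fold of 2 or more and with an equal-variance test (0 each), and leaving out each sample gave 0 to 1. The cause was not tested. Among named genes that were not called, leaving out each sample in turn gave differences of both signs for *Dsc1* (-0.37 to 0.03), *Gja1* (-0.15 to 0.02), *Epcam* (-0.18 to 0.00) and *Ocln* (-0.04 to 0.11). Neither centring nor quantile normalization turned the sign of a named gene, and they moved the median of all probe sets by 0.0103 and 0.00648. No paired analysis was possible because no number occurs in both genotypes. Dim probe sets limit what can be said of the 18 members below the median probe set mean.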
